A study of Mus musculus with 3 samples.

Results

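The genes described here encode 10 RNA-binding proteins of 4 families: Rbfox1, Rbfox2 and Rbfox3; Celf2 and Celf4; Nova1 and Nova2; and Elavl2, Elavl3 and Elavl4. They were taken as a list of names, and all 10 were found among the 21631 protein-coding genes on chromosomes 1 to 19 and X of the RefSeq table for GRCm38.p6, the build also called mm10. For each gene the accessible regions (peaks) were read over a window made of the gene span plus 5 kb on each side. The 10 windows held 1941 of 512023 peaks in the v3 library, 2549 of 850991 in v2 and 2301 of 622754 in v1.

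The 3 libraries, v3, v2 and v1, were made with sciATACv3, sciATACv2 and sciATACv1, 3 versions of a single-cell ATAC-seq preparation applied to whole-brain nuclei of the C57BL6 strain. In this assay the transposase Tn5 inserts barcoded adapters into open chromatin of nuclei in 96 wells, and a second barcode is added by PCR in a chip of 5184 nanowells. No allele, treatment or age is named, and what sets the versions apart is not given in the sources used here. Each version is 1 library, so there is no spread between replicates and no test between versions; intervals below are 95% intervals that cover counting error only, and the sequencing depth is unknown.

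Proteins of these families bind short sequence elements in pre-mRNA and mRNA and set which exons neurons keep, how stable their messages are and where they are translated. Rbfox proteins bind the element UGCAUG, and Rbfox3 is the antigen NeuN, the standard nuclear marker of mature neurons. Celf proteins bind GU-rich elements, Nova proteins bind clusters of short CA-containing elements, and the neuronal Elavl (Hu) proteins bind AU- and U-rich elements, many of them in mRNA 3′ ends. Rbfox2 is made in many tissues, whereas Rbfox3, both Nova proteins, Elavl3 and Elavl4 are known mainly from neurons. Nuclei of all brain cell types were pooled in each list, so fewer nuclei with an open region and less opening per nucleus cannot be told apart.

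As a check of the tissue, all 5 neuronal markers examined (Snap25, Syt1, Slc17a7, Gad1 and Gad2) had a peak within 1 kb of a start or span end in every library, as did 77.9%, 82.7% and 78.2% of all protein-coding genes in v3, v2 and v1. So did all 3 astrocyte, all 3 oligodendrocyte and all 3 microglial markers, and 3, 3 and 2 of the 3 endothelial markers in v3, v2 and v1. Of 4 liver and muscle markers, 2, 3 and 3 also had one, so such a peak does not separate tissues.

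The annotated starts of these genes lay in or near peaks in all 3 libraries. RefSeq promoter sequences (GRCm38.p6; 250 bases before and 50 after an annotated start) were matched for 8 of the 10 genes, with 21 starts in all. The 6 shown here contrast the first and an internal start of Rbfox1, a CpG-poor and a CpG-rich start of Celf2, the Nova2 start, which lay outside the v1 peaks, and the Elavl3 start, which held the most kinds of motif. Capitals mark matches, on either strand (a reverse match to GGGCGG reads CCGCCC), to the GC box GGGCGG, the CCAAT element, the TATA-box letters TATAAA or the E-box letters CAGCTG.
Rbfox1 first start, chr16:5884543-5884842, plus strand: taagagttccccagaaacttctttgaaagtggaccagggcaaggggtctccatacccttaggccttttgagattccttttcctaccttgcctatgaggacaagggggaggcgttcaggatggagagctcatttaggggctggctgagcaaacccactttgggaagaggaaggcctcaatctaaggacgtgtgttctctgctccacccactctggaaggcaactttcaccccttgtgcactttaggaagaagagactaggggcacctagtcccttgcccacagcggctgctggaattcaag
Rbfox1 internal start, chr16:7069585-7069884, plus strand: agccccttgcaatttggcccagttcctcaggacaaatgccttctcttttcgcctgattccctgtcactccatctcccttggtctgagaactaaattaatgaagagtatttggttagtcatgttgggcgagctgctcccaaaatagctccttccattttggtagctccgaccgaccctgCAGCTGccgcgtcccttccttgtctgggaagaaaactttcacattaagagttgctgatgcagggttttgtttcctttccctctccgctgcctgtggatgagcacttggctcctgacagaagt
Celf2 first start, chr2:7396149-7396448, minus strand: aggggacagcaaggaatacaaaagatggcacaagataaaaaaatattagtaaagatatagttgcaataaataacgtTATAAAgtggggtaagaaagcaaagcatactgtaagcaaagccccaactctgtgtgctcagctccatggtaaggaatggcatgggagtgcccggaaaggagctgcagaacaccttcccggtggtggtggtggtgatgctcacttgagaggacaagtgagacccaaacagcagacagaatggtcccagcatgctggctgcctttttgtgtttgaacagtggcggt
Celf2 internal start, chr2:6871986-6872285, minus strand: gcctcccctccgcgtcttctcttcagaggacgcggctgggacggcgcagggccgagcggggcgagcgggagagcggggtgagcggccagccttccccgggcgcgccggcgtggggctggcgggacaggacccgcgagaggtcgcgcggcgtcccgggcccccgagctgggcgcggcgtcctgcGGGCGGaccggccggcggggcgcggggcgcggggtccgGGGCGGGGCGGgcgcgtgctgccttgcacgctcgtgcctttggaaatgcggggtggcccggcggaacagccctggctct
Nova2 start, chr7:18925638-18925937, plus strand: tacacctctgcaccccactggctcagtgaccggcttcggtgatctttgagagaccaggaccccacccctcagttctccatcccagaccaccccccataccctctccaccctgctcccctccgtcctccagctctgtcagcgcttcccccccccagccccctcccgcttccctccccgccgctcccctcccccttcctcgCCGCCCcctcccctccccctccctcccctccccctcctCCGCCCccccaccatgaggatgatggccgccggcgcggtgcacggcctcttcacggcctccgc
Elavl3 start, chr9:22051974-22052273, minus strand: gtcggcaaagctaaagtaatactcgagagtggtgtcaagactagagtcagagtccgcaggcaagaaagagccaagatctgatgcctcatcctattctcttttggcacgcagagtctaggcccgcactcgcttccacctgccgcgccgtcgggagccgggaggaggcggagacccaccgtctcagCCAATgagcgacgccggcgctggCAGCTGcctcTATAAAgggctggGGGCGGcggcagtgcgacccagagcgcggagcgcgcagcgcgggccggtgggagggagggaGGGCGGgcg

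These sequences ranged widely in CpG content. The first Rbfox1 start had 3 CpG dinucleotides in 300 bases (0.144 of the number expected from its C and G content), and none of the motifs searched. The Celf2 start lying 524.2 kb inside the gene had 48 (1.02 of expected), with GC boxes 67, 29 and 24 bases before the start, of which the last 2 share a base. Elavl3 held a CCAAT element 66 bases before its start, as well as a TATA box, an E-box and GC boxes. Nova2 held GC boxes in reverse orientation 51 and 13 bases before its start. Among the 21045 promoters of 17274 protein-coding genes, 46.7% held GGGCGG, 38.5% CCAAT, 12.7% TATAAA and 15.7% CAGCTG. The other motifs searched were TGACGTCA (CRE), GCGCATGC (NRF1), the E-box CATCTG and TTCAGCACC (left part of the REST element), on both strands. They occurred in 2.26%, 3.55%, 14.4% and 0.418% of promoters, and no member promoter held TGACGTCA, GCGCATGC or TTCAGCACC.

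All 8 genes had a peak within 1 kb of a start in each library, while 76.6% of the 17274 protein-coding genes with an annotated start did in v3, 81.7% in v2 and 77.0% in v1. A peak covered 21, 21 and 19 of the 21 starts in v3, v2 and v1. Over all 21045 starts of protein-coding genes the covered share was 71.7%, 76.4% and 70.9%. Of the 21 starts, 11 had a CpG content under 0.6 of expected, and peaks covered 11, 11 and 10 of them in v3, v2 and v1. Among all 10914 starts below that limit, 47.6%, 56.2% and 46.5% were covered, against 97.7%, 98.2% and 97.2% of the 10131 at or above it. Several of the 21 starts belong to 1 gene and lie under the same peak, so they are not independent.

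**Figure D1:**
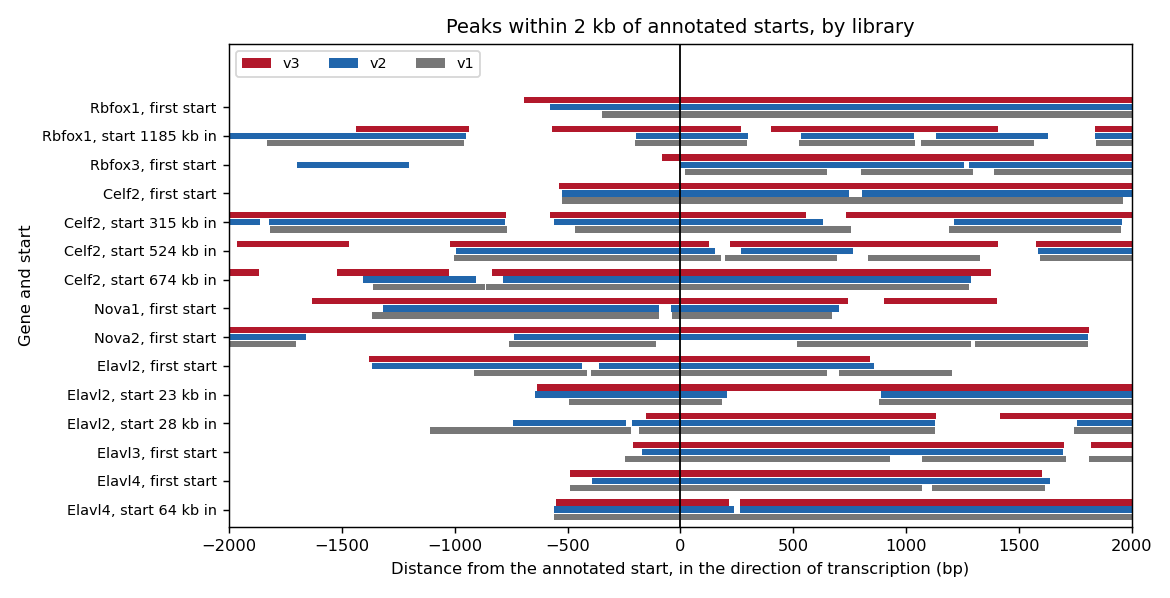
Peaks within 2 kb of the annotated starts of 8 genes, drawn as bars by library (v3 above v2 above v1 in each row) against the distance from the start in bp, downstream to the right; starts under 1 kb from one already shown are left out. Peaks cross the line at 0 in every row, except in v1 for Rbfox3 and Nova2. The Rbfox3 start, labelled as the first, lies inside the gene span and not at its 5′ end.

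The Rbfox1 gene, which encodes the neuronal splicing factor with the longest gene of the list, spans 1528 kb at chromosome 16, 5884793 to 7412480. Its window held 711 peaks in v3, 1001 in v2 and 898 in v1. This was 46.2 (42.9 to 49.8), 65.1 (61.1 to 69.3) and 58.4 (54.6 to 62.4) peaks per 100 kb, with 47.6%, 57.3% and 45.5% of the window covered. Among the 106 protein-coding genes with a window 0.5 to 2 times as long, which include Rbfox1 itself, the median density was 29.96, 49.3 and 40.7 peaks per 100 kb, lower than Rbfox1 in each library. Its first start lay under a wide peak of 3312 bp in v3, 2781 bp in v2 and 2677 bp in v1, wider than 99.3%, 99.5% and 99.7% of the peaks of its own library. Peaks over starts are wide in general: over covered starts of protein-coding genes the median width was 1762, 1429 and 1362 bp. The covered share within 2000 bp on each side of the first Rbfox1 start exceeded that of 85.4%, 84.2% and 84.5% of all such starts. Over the internal start, 1185 kb downstream, the peak was 837, 500 and 500 bp wide, and 500 bp is the minimum width in the lists. The promoter sequences printed above hold 52.7% G and C at the first start and 50% at the internal one.

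Within Rbfox1, the downstream 763.8 kb had more peaks than the upstream 763.8 kb in all 3 libraries. By peak midpoints, 389, 529 and 483 peaks lay in the downstream part in v3, v2 and v1, against 319, 468 and 410 in the upstream part. The ratio was 1.22 (1.05 to 1.42) in v3, 1.13 (0.996 to 1.28) in v2 and 1.18 (1.03 to 1.35) in v1, so the v2 interval included 1. The same split gave 1.15, 1.13 and 1.02 in Rbfox3 and 1.01, 1.02 and 1.12 in Celf2, and all 6 of those intervals included 1. Whether Rbfox1 differs from them was not tested. The full 50 kb bins held 14 to 32 peaks in v3, 25 to 44 in v2 and 19 to 40 in v1, and none was empty. Spearman's correlation between libraries over the 30 full bins was 0.42 for v3 and v2, 0.55 for v3 and v1 and 0.82 for v2 and v1; neighbouring bins share chromatin, so this is a description. The longest stretch of the gene without a peak in any library was 22.4 kb, at 6115660 to 6138072, against a median of 11.7 kb in genes of like length.

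**Figure D2:**
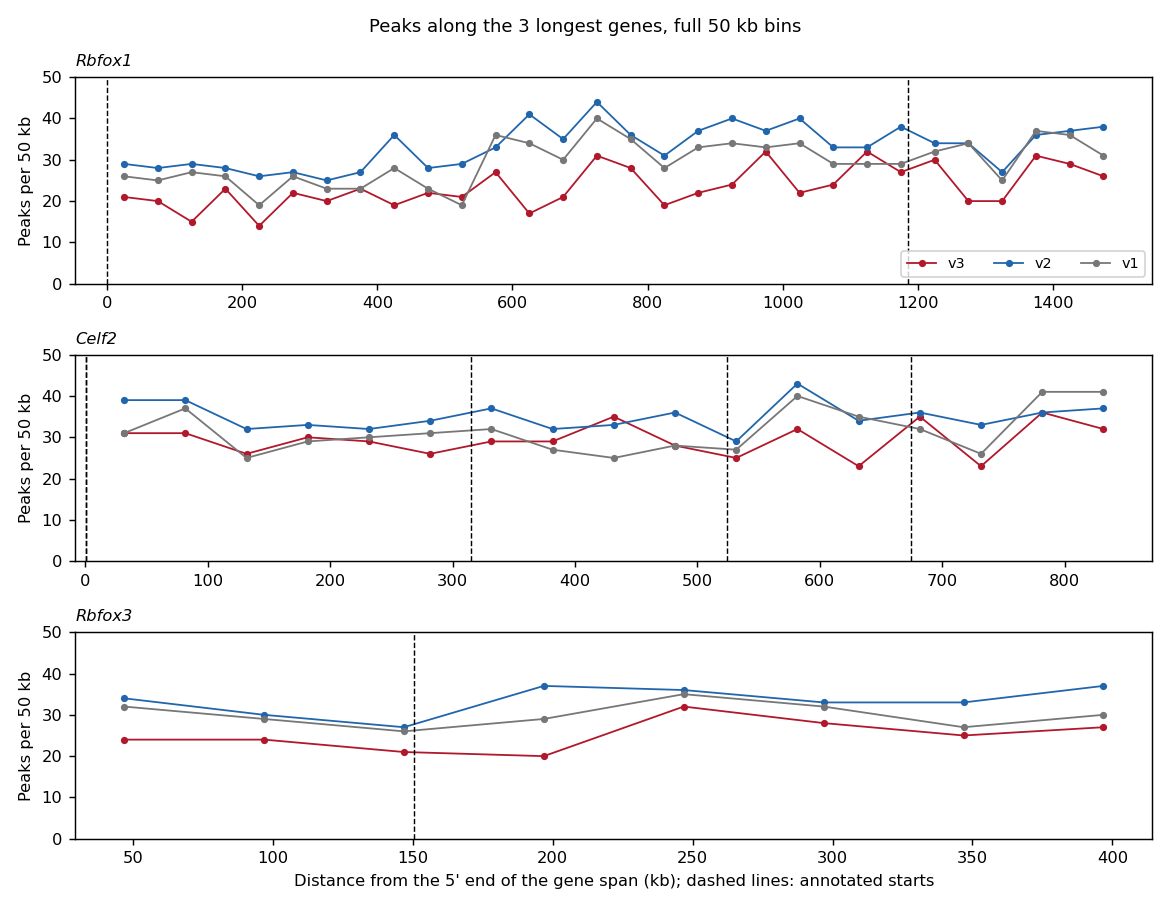
Peaks per full 50 kb bin along the 3 longest genes of the list (Rbfox1, Celf2 and Rbfox3) in v3, v2 and v1, against the distance in kb from the 5′ end of the gene span, with dashed lines at annotated starts. Every bin holds peaks in every library; in Rbfox1 the lowest v3 and v1 bins, with 14 and 19 peaks, lie in the upstream part.

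Rbfox2, the family member made in many tissues, spans 229.4 kb at chromosome 15, 77078990 to 77308434. Its window held 126, 157 and 137 peaks in v3, v2 and v1, or 52.6 (43.8 to 62.7), 65.6 (55.7 to 76.7) and 57.2 (48.0 to 67.6) per 100 kb. These densities were higher than those of 92.7%, 89.4% and 88.3% of the 1898 genes of like length. A peak overlapped the lower-coordinate end of the span in every library, while near the higher-coordinate end the closest peak lay 991 bp away in v3, 1009 bp in v2 and 823 bp in v1. The widest v1 peak of the window, 2933 bp at 77243780 to 77246712, lay wholly under v3 and v2 peaks.

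Rbfox3, the gene of NeuN, spans 421.8 kb at chromosome 11, 118489760 to 118911597. It held 220, 275 and 257 peaks in v3, v2 and v1, or 51.0 (44.4 to 58.1), 63.7 (56.4 to 71.7) and 59.5 (52.5 to 67.3) per 100 kb, more than 91.8%, 85.2% and 94.2% of 863 genes of like length. The annotated start used for Rbfox3, at 118761041 on the minus strand, is internal to the span, whose 5′ end is at 118911597. This internal start lay inside a peak of 2374 bp in v3 and one of 1262 bp in v2. In v1 the closest peak, 631 bp wide, ended 21 bp short of that start. Further downstream peaks followed within 2 kb in v2 and v1, and the single v3 peak reached 2293 bp past the start. The widest v2 peak of the window, 4751 bp at 118484078 to 118488828, lay in the 5 kb flank over Engase, a neighbouring glycosidase gene, and not in Rbfox3.

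Celf2, which encodes a splicing and mRNA stability factor, had the highest covered share of the 10 genes in each library. It spans 856.6 kb at chromosome 2, 6539694 to 7396341. The window held 497 peaks in v3, 595 in v2 and 536 in v1, or 57.4 (52.4 to 62.6), 68.7 (63.3 to 74.4) and 61.9 (56.7 to 67.3) per 100 kb. Peaks covered 66.3%, 63.2% and 52.6% of the window, more than in 99.7%, 99.0% and 99.7% of the 303 genes of like length. Its starts are spread over 674.5 kb, and all 5 were covered in every library. The first start lay under peaks of 3219, 1270 and 2486 bp, and the most internal one under peaks of 2213, 2078 and 2142 bp, so the peak at the internal start was the wider of the pair in v2 and the narrower in v3 and v1. The CpG-rich start printed above had narrower peaks, of 1146, 1149 and 1184 bp. The widest peak in any of the 10 windows was a v3 peak of 6680 bp at 6532267 to 6538946, just past the downstream end of Celf2. Peaks of v2 and v1 covered 91.7% and 84.2% of that stretch, as 4 and 5 separate peaks.

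Celf4, known from excitatory neurons, where it binds many synaptic mRNAs, spans 276.9 kb at chromosome 18, 25477620 to 25754520. It held 136, 176 and 158 peaks in v3, v2 and v1, or 47.4 (39.8 to 56.1), 61.4 (52.6 to 71.1) and 55.1 (46.8 to 64.4) per 100 kb. A peak of 1707 bp overlapped the higher-coordinate end of its span in v2, and peaks of 702 and 688 bp lay 37 and 18 bp beyond that end in v3 and v1. Near the lower-coordinate end the closest peak was 500 bp wide in each library.

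The Nova genes encode KH-domain splicing factors. Nova1 spans 121.6 kb at chromosome 12, 46697895 to 46819480, and held 58 peaks in v3, 76 in v2 and 80 in v1. It was the only one of the 10 genes with more peaks in v1 than in v2, although the v2 list is the larger. Peaks covered 34.5% of its window in v3, 47.8% in v2 and 49.4% in v1, which placed it above 49.3%, 60.4% and 97.5% of 3777 genes of like length. Over its start the v3 peak was 2375 bp wide, where v2 and v1 had peaks of 743 and 712 bp with a separate peak just upstream, of 1226 and 1273 bp.

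Nova2, the shorter paralog, spans 39.43 kb at chromosome 7, 18925888 to 18965319, and held 22, 30 and 28 peaks. Here the v3 library had 1 peak of 3998 bp across the start, the widest of its window, and v2 had 1 of 2546 bp. In v1 the start lay between peaks, one of 649 bp ending 110 bp before it and one of 770 bp beginning 518 bp after it. Of the 300 promoter bases printed above, 300, 300 and 141 lay in peaks of v3, v2 and v1.

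The Elavl genes encode the neuronal Hu proteins. Elavl2, which encodes HuB, spans 188.6 kb at chromosome 4, 91211533 to 91400108, with 92, 125 and 106 peaks in v3, v2 and v1. The 6 annotated starts of Elavl2 lie within 27.94 kb and all were covered in every library. The v3 peak was the widest at its first start, at 2221, 1223 and 1048 bp in v3, v2 and v1, and at the starts about 23.5 kb downstream, at 2658, 853 and 680 bp. At the remaining starts the peaks were nearly alike, 1287, 1346 and 1313 bp. Elavl3, which encodes HuC, an early marker of postmitotic neurons, spans 37.14 kb at chromosome 9, 22015005 to 22052146. It held 22, 33 and 32 peaks, and its start lay under peaks of 1912, 1869 and 1173 bp. Its density in v1, 67.9 peaks per 100 kb (46.4 to 95.8), exceeded that of 99.6% of 9320 genes of like length, but its window also reaches into the neighbours Prkcsh and Zfp653. The widest v3 and v2 peaks of that window, of 3612 and 3648 bp, lay over Prkcsh.

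Elavl4, which encodes HuD, was the least dense of the 10 genes in every library. It spans 148.2 kb at chromosome 4, 110203737 to 110351939, and held 57, 81 and 69 peaks, or 36.0 (27.3 to 46.7), 51.2 (40.7 to 63.6) and 43.6 (33.9 to 55.2) per 100 kb in v3, v2 and v1. That was close to the medians of 3088 genes of like length, 35.9, 54.3 and 41.1. It also had a stretch of 12.3 kb without a peak in any library, at 110310839 to 110323130, against a median of 5.52 kb. Its first start lay under peaks of 2096, 2030 and 1564 bp. Around the starts about 65 kb downstream, v1 had a single peak of 3126 bp, the widest of its window, where v3 and v2 each had 2 peaks with a short gap between them.

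The densities of the 10 genes were also compared with one another. The lowest, the median and the highest were 36.0, 46.5 and 57.4 peaks per 100 kb in v3, 51.2, 63.3 and 70.0 in v2 and 43.6, 57.8 and 67.9 in v1. The medians over all protein-coding genes were 26.6, 42.6 and 29.7. Celf2 was highest in v3 and Elavl3 in v2 and v1, and Elavl4 was lowest throughout. In this order, the intervals of all 9 pairs of neighbours overlapped in each library, so the order of neighbours is not settled. Genes ranked by density tend to overlap with their neighbours, and an overlap does not show that densities are equal. The intervals of the highest and the lowest gene were apart in v3 but not in v2 or v1. Over all 45 pairs of genes, the Celf2 interval lay above that of Elavl4 in v3 and v1 and above that of Rbfox1 in v3, and no other pair was apart. Density exceeded the median of genes of like length for 10, 9 and 10 of the 10 genes in v3, v2 and v1, the exception being Elavl4 in v2.

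**Figure D3:**
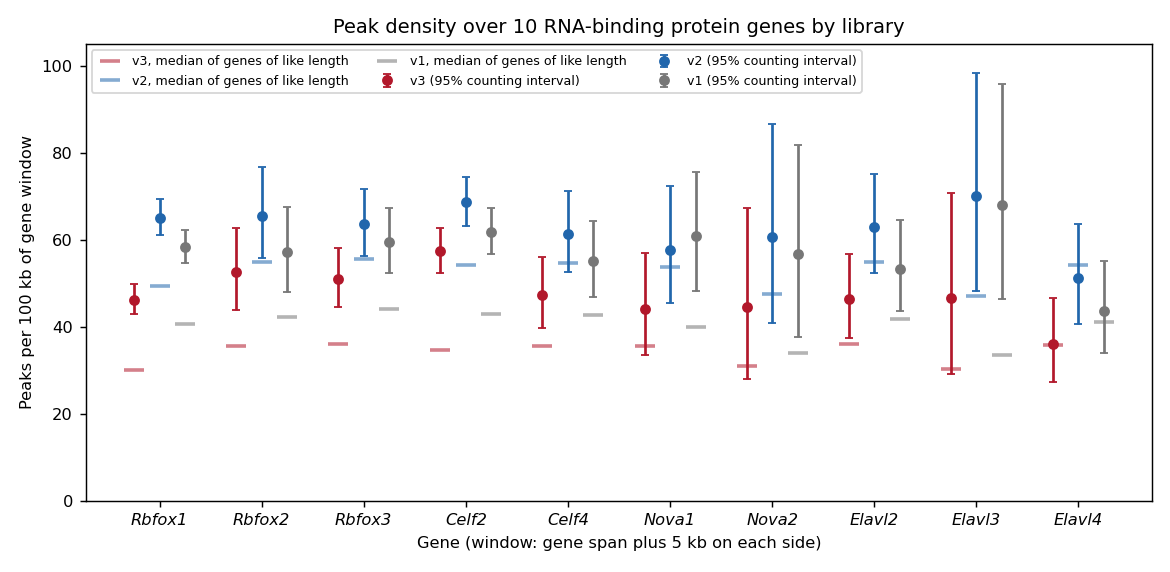
Peaks per 100 kb of window for each of the 10 genes in v3, v2 and v1 (dots, with 95% counting intervals), with the median of protein-coding genes of like length in the same library as a horizontal dash. The dots lie above their dashes except for Elavl4, which is at the dash in v3, below it in v2 and slightly above it in v1.

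Most accessible regions of these genes were found in all 3 libraries. Merging the lists gave 2031 regions in the 10 windows, of which 1282 (63.1%, 61.0 to 65.2) had a peak in every library, 364 in 2 and 385 in 1. Over all protein-coding windows the share in every library was 46.6%. By gene it ran from 54.5% of 77 regions in Nova1 to 72.8% of 438 in Celf2 (68.4 to 76.9). Among 6284 protein-coding genes with at least 20 regions the median was 48.0%, so all 10 genes lay above it, and Celf2 lay above 97.0% of them. The member windows were also more covered by peaks, at a median of 50.2%, 55.5% and 46.7% in v3, v2 and v1. The medians over all protein-coding genes were 27.85%, 35.83% and 23.5%. Lists that cover more of a window overlap more often, so the shares are not comparable on that account. Whether the members exceed windows of like cover was not tested. Of the regions found in 1 library, 99 were in v3, 235 in v2 and 51 in v1, and their median width was 500 bp against 1470 bp for those in all 3. A merged region spans all peaks in it, so part of that difference is by construction. In Nova1 no region was shared by v3 and v2 alone, while 17 were shared by v2 and v1 alone. In Celf2 the counts were 34 in v3 and v2 alone and 19 in v2 and v1 alone, and in Elavl4 they were 9 and 6. Over all protein-coding windows there were 35976 and 64450, so v2 and v1 alone was the more frequent pair there. The same held for the 10 windows together, with 121 and 220, and for every member except Celf2 and Elavl4, so it is not particular to Nova1.

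**Figure D4:**
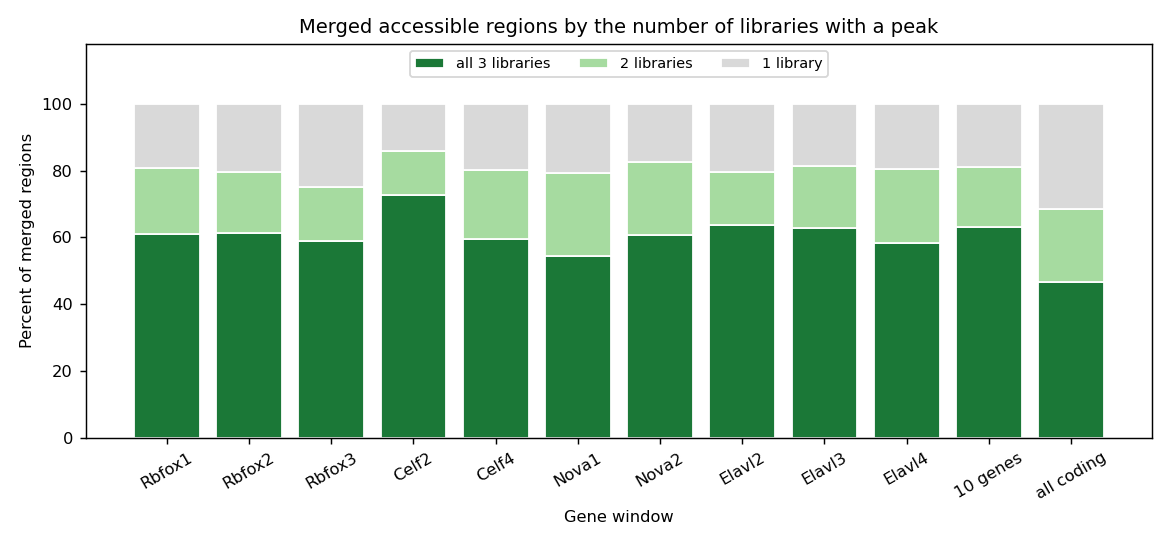
Percent of merged accessible regions with a peak in all 3 libraries, in 2 or in 1, for each gene window, for the 10 windows together and for all protein-coding windows. The darkest part is tallest in Celf2, at 72.8%, and shortest among the 10 genes in Nova1, at 54.5%, with 46.6% over all protein-coding windows.

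Between libraries, the share of all peaks that fell in a window was compared as a ratio, since the lists differ in size. No member passed a ratio of 1.5 in either direction in any pair. Among the 9711 protein-coding genes whose windows held 30 or more peaks in the 3 lists together, the background past this fold was 11.3% higher and 4.94% lower in v3 over v1, 11.9% and 6.23% in v3 over v2, and 6.87% and 3.26% in v2 over v1. The members held a median of 371.5 summed peaks, and ratios from fewer peaks vary more by counting error. The share past the fold among genes with as many peaks as the members was not computed. The median ratio over these genes was 1.07, 1.14 and 0.935 for v3 over v1, v3 over v2 and v2 over v1, or 0.09, 0.19 and -0.10 on the log2 scale, and the members are read against those medians.

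Between v2 and v1 all 10 genes had a ratio below the median of all genes. The median of the members was 0.814, and the values ran from 0.695 in Nova1 to 0.863 in Elavl2. The intervals of Rbfox1 (0.816, 0.745 to 0.894), Celf2 (0.812, 0.722 to 0.915) and Rbfox3 (0.783, 0.658 to 0.932) lay below 0.935, and those of the other 7 included it. Against the median of genes of like length, 0.900 to 0.951 depending on the member, all 10 ratios were again lower, but only the interval of Rbfox1 lay below. Over the 1422 genes with at least 200 peaks the median was 0.877, and against that value all 10 ratios were lower and no interval lay below. Nova1, with 76 peaks in v2 and 80 in v1, had a ratio of 0.695 (0.501 to 0.964), which 5.31% of all genes fell below.

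In v3 over v2, 9 of the 10 genes lay above the median of all genes. Celf2 was the highest at 1.39 (1.23 to 1.57), and its interval was the only one to exclude 1.14. The Celf2 interval also lay above the median of genes of like length (1.08) and of genes with at least 200 peaks (1.16). The Rbfox1 interval (1.18, 1.07 to 1.30) lay just above its own like-length median (1.06) but included 1.16. After Celf2 the highest ratios were those of Rbfox2 at 1.33 (1.05 to 1.70) and Rbfox3 at 1.33 (1.11 to 1.59). Elavl3 was the lowest at 1.11 (0.615 to 1.96). In v3 over v1 the ratios ran from 0.836 in Elavl3 (0.463 to 1.48) to 1.13 in Celf2 (0.996 to 1.28), with a member median of 1.02. Here 8 of the 10 genes lay below the median of all genes, and only the interval of Rbfox1 (0.963, 0.872 to 1.06) excluded it, narrowly. Against genes of like length 5 of the 10 lay below, the Rbfox1 interval included the median (0.977) and that of Celf2 lay just above it (0.991). Against the 1.025 of genes with at least 200 peaks, 5 lay below and no interval excluded it. The 3 pairs share libraries and are not independent of one another.

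**Figure D5:**
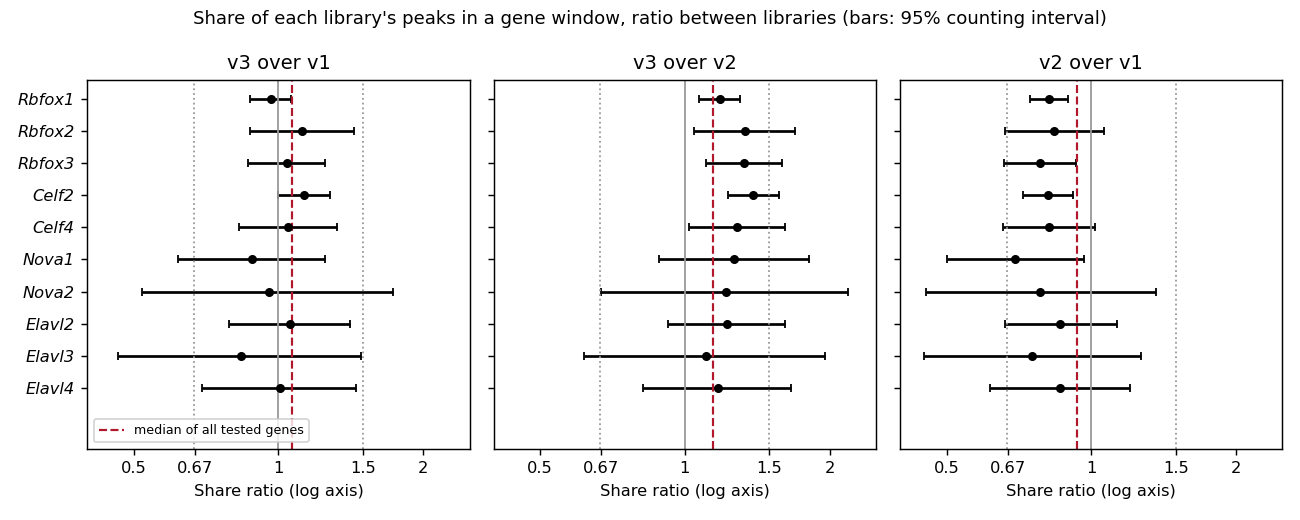
Ratio between libraries of the share of peaks in each gene window, on a log axis, for v3 over v1, v3 over v2 and v2 over v1 (dots, with 95% counting intervals), with the median of all tested genes dashed in red and the 1.5-fold limits dotted. All dots lie within the dotted lines, and in v2 over v1 all lie left of the dashed line at 0.935.

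By covered bases, Nova1 had the lowest ratio of the 10 genes in each pair, but no interval was computed for this measure. By peak count the Nova1 ratio in v3 over v1 was 0.882 (0.618 to 1.25). Its covered share of 34.5% in v3, 47.8% in v2 and 49.4% in v1 gave, as a share of all covered bases of each library, ratios of 0.647 for v3 over v1 and 0.657 for v2 over v1, both past 1.5-fold, as were 4.19% and 1.45% of the 9711 genes in the same direction, while the other 9 ran from 0.948 to 1.21 and from 0.796 to 0.862. Nova2, its paralog, had 1.21 for v3 over v1, the highest of the 10. Elavl3, the lowest by peak count in v3 over v1 (0.836) and v3 over v2 (1.11), had 1.14 and 1.43 by covered bases. In v3 over v1, 4 of the 10 ratios by covered bases lay on the other side of 1 from those by peak count.

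Other splicing regulators were looked at for comparison. The 19 other neural regulators, among them the Ptbp, Mbnl, Khdrbs and Msi genes, had median densities of 42.9, 61.2 and 49.6 peaks per 100 kb in v3, v2 and v1. The 24 ubiquitous splicing factors, such as SR protein and hnRNP genes, had 33.7, 40.7 and 34.2, with much shorter windows (a median of 26.0 kb against 219 kb for the members). All genes of both lists had a peak within 1 kb of a start or span end in each library, against 77.9%, 82.7% and 78.2% of all protein-coding genes. Khdrbs2, which encodes the splicing factor SLM1, had the most peaks of the neural list, 204, 322 and 255, followed by Msi2, a translational regulator of neural progenitors, with 167, 247 and 206. Sf3b1, which encodes a core subunit of the U2 snRNP, had 25, 28 and 25 and the hnRNP gene Hnrnpm 23, 24 and 21.

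For v3 over v2, 4 of 17 genes of the neural list with at least 30 peaks were past 1.5-fold higher. In the ubiquitous list 6 of 10 such genes were, against 0 of the 10 members and the background of 11.9%. Of the genes past the fold, 2 of the neural and 0 of the ubiquitous list had an interval above 1. Over all tested genes of the 2 lists, windows held fewer peaks. The medians were 131 and 44.5 summed over the libraries, against 371.5 for the members. The median ratios were 1.31, 1.56 and, for the members, 1.25, and the difference between the lists was not tested. For v3 over v1 the only gene of the neural list past 1.5-fold was Ptbp3, with 48 peaks in v3, 38 in v2 and 23 in v1. The Ptbp3 ratio was 2.54 (1.51 to 4.37), and the gene was singled out after its values were seen.

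By the pair of log2 share ratios v3 over v1 and v2 over v1, the genes nearest to Rbfox1 among 3282 protein-coding genes with at least 100 summed peaks were Nol10, Cyrib and Limch1. The Euclidean distances were 0.0023, 0.0028 and 0.0035. Nol10 had 42, 59 and 53 peaks in v3, v2 and v1, Cyrib had 68, 96 and 86, and Limch1 had 143, 202 and 181. The likeness rests on 3 libraries and is a description.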

How the data were processed

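Each library was deposited by the authors as a list of peak coordinates (chromosome, start and end in bp) with no score, signal or read count, so the depth is unknown. ArchR, MACS2 and the build mm10 are named, per the submitters' processing notes, without versions; the sources used here name no aligner and no calling threshold. The lists were read with Python 3.11.15, numpy 2.4.6, pandas 2.3.3 and scipy 1.17.1, and figures were drawn with matplotlib 3.10.9.

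A peak counted in a window (gene span plus 5 kb on each side) if it overlapped it by at least 1 bp. Densities have exact Poisson intervals, percentages of regions exact binomial intervals, and share ratios conditional exact intervals, all at 95%. The share ratio intervals treat the peaks of a list, and the lists of a pair, as independent. Most regions of the 10 windows were found in all 3 libraries, so these intervals are a rough guide. Share ratios were computed for genes with at least 30 summed peaks and called past 1.5-fold. The computation of share ratios was tested on simulated counts drawn independently for each library from Poisson distributions. That checks the computation and not whether real peak counts vary in this way. Gene spans and promoters came from RefSeq tables for GRCm38.p6, which is mm10. Overlapping or adjoining peaks were merged across libraries into regions.

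All 10 members are named, the 2 genes with the most peaks in each related list, and the 3 genes nearest to Rbfox1. The members and lists were chosen with earlier results of these data known, and the splits by CpG content and by the upstream and downstream part of a gene were added after the data were seen. Protein sequences were not analysed here. The alternatives tried were a flank of 0 or 20 kb, peaks wider than 500 bp, peak midpoints, covered bases, another denominator, a fold of 2, 500 bp at starts and 50% coverage of a region.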

Additional observations from a re-analysis of the deposited data

How the results depend on the processing

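No paired analysis was possible because each version has 1 library. Of 73 summary values over all settings, 62 stayed within 1.5 times the reported value or, for the percentage of regions, within its interval. This limit is wide for ratios near 1. The member median in v3 over v1 counted as within it although it went from 1.02 to 0.892 with wider peaks. Of 270 values for single genes, 239 stayed within the reported 95% interval. Of 150 single-gene share ratios, 19 crossed 1, 16 of them in v3 over v1, 3 in v3 over v2 and 0 in v2 over v1. The medians of all genes were not recomputed under these settings. Whether the members stay on the same side of those medians was therefore not tested. In v3 over v1, 6 crossed with wider peaks, among them Rbfox2 (0.893), Rbfox3 (0.814) and Celf4 (0.865), so the v3 over v1 directions depend on this setting. With peaks wider than 500 bp the 10 windows held 1222 peaks in v3, 1416 in v2 and 1142 in v1. Members past 1.5-fold, 0 in each pair as reported, became 1 in v3 over v1 (Nova1) and 2 in v2 over v1 (Nova1 and Elavl3) with wider peaks, all lower, against 6.89% and 5.45% of 5545 genes. With covered bases the count was 1 in each of these pairs (Nova1). Members with a ratio above 1 in v3 over v1 numbered 2 with wider peaks and 3 as a share of peaks in protein-coding windows, against 6. The regions found in all 3 libraries made up 53.9% with wider peaks and 52.7% where at least 50% of the region had to be covered, against 63.1%. The cause of these shifts was not tested. With 1 library per version and no read counts, depth, list size and preparation cannot be told apart.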

Other observations

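The windows also hold other annotated genes. Inside Rbfox1 lie 5 long non-coding RNA genes, of which Gm36824 overlapped 11 peaks in v3, 17 in v2 and 12 in v1. Gm3227, inside Celf4, overlapped 15, 25 and 25. Mir6402, a miRNA gene inside Elavl2, overlapped 0 in each. Peaks carry no strand, so those in a nested gene cannot be assigned to it or to its host.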
